A study of Mus musculus with 4 samples.

Results

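The miR-15/16 seed family comprises miRNAs that share bases 2 to 8, the stretch that pairs with target mRNAs. Its 6 guide strands studied here, mmu-miR-16-5p, mmu-miR-15a-5p, mmu-miR-15b-5p, mmu-miR-195a-5p, mmu-miR-322-5p and mmu-miR-497a-5p (mmu, for mouse, is left off from here), were chosen by name from the 1809 miRNAs listed for all 4 libraries, and all 6 were listed and tested. The libraries hold small RNA of exosome preparations from plasma. Exosomes are small vesicles that cells release, here precipitated from plasma, so RNA outside vesicles may be present too. The mice were C57BL/6, either gp49B-/- (gp49B KO, lacking an inhibitory receptor of myeloid cells) or wild type (WT). All mice of both genotypes carried a tumour graft of LLC cells, a mouse Lewis lung cancer line, given by vein, and were bled on day 21. The targeted gene's mRNA was not analysed here. Each genotype had 2 libraries, numbered pool 1 and pool 2, made from 4 pooled plasma samples for each gp49B KO library and 3 for each WT library, so the number pooled followed genotype. With 2 pools per genotype, whose separate handling the labels do not describe, p-values measure only the spread between these libraries.

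miRNAs of this family guide Argonaute proteins to mRNAs with matching sites and lower their translation and stability. They are known for restraining cyclins and other drivers of the cell cycle and the survival factor BCL2, and in humans the miR-15a and miR-16-1 locus is lost in many chronic lymphocytic leukaemias. In blood, miR-16-5p is abundant in red blood cells and platelets and is therefore common in plasma. Because plasma mixes RNA from many cell types, fewer cells of a type and less RNA per cell cannot be told apart in these values.

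The mature sequences below, from RefSeq on GRCm38.p6, are shown because the shared seed defines the family and the rest of each strand tells the members apart. Capitals mark bases 2 to 8, and positions are counted from 1 at the 5′ end.
miR-16-5p: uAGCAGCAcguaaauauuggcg
miR-195a-5p: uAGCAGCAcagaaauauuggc
miR-15a-5p: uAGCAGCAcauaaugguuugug
miR-15b-5p: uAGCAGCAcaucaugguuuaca
miR-322-5p: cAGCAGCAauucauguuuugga
miR-497a-5p: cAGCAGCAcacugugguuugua
miR-503-5p: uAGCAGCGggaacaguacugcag
The last is no member: it is the neighbour of miR-322 and departs from the family at the final seed base (A8G against miR-16-5p). Among the members, miR-16-5p and miR-195a-5p are the closest pair, identical at 19 of 21 aligned bases and separated by G10A and U11G. The next closest pair, miR-15a-5p and miR-15b-5p, is identical at 18 of 22 bases. By contrast miR-16-5p and miR-497a-5p match at 11 of 22 bases.

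The members come from 4 places in the genome (GRCm38, deposited loci identical to RefSeq's). On chromosome 14, miR-15a-5p (61632075 to 61632096) and 1 copy of miR-16-5p (61631936 to 61631957) lie on the minus strand in an intron of the long noncoding RNA gene Dleu2, with 117 bases between them. On chromosome 3, miR-15b-5p (69009775 to 69009796) and the other copy of miR-16-5p (69009918 to 69009939) lie on the plus strand in an intron of Smc4, which encodes a condensin subunit, 121 bases apart. On chromosome 11, miR-497a-5p (70234730 to 70234751) and miR-195a-5p (70235062 to 70235082) lie on the plus strand, and miR-322-5p, the mouse counterpart of human miR-424, lies on the minus strand of chromosome X (53054306 to 53054327). In GENCODE release M21 no gene other than miRNA genes covers the loci on chromosomes 11 and X.

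The counted unit was the UMI, a random tag put on each captured molecule so that its PCR copies count as 1. UMIs over miRNAs totalled 1709669 and 3630249 over miRNAs in gp49B KO pools 1 and 2, and 1577749 and 3170219 in WT pools 1 and 2. Pool number separated the libraries further than genotype did: reads per UMI were 5.70 and 2.11 in gp49B KO and 5.29 and 1.69 in WT, and the smallest miRNA count above 0 was 10 and 3 in gp49B KO and 10 and 1 in WT. Values are therefore given for each pool number. Levels are CPM, the UMIs of a miRNA scaled to 1000000 miRNA UMIs per library, and ratios are given both after TMM scaling, which centres most miRNAs on no change, and on total miRNA UMIs. Between these scalings the median log2 ratio over the 1797 miRNAs tested was -0.01 in pool 1 and -0.02 in pool 2 with TMM, but -0.18 and 0.24 on total UMIs, so a ratio on total UMIs is to be read against those shifts. Intervals are exact 95% intervals and cover counting error only.

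The family took 29.9% and 28.7% of miRNA UMIs in gp49B KO pools 1 and 2, against 35.8% and 24.96% in WT pools 1 and 2. Nearly all of this was miR-16-5p. It had 503448 and 1034545 UMIs in gp49B KO pools 1 and 2, and 558237 and 785747 UMIs in WT pools 1 and 2. As a level this was 294471 and 284979 CPM in gp49B KO, against 353819 and 247853 in WT. On total UMIs the gp49B KO libraries thus lay between the WT libraries, which were the highest and the lowest of the 4. After TMM scaling the levels were 195992 and 416760 TMM-scaled CPM in gp49B KO and 208624 and 431928 in WT. There gp49B KO pool 1 was the lowest and WT pool 2 the highest. miR-16-5p was the most abundant miRNA in 3 libraries and second in WT pool 2. The family share averaged 29.3 ± 0.795% in gp49B KO and 30.4 ± 7.69% in WT (SD, n = 2 each), and the difference of -1.09 percentage points was smaller than the WT spread (two-sided exact permutation test, p = 1.00). Without WT pool 1 the difference was 4.35 points, without WT pool 2 it was -6.53 points, and with miR-122-5p, miR-486a-5p and miR-486b-5p out of the total it was -4.87 points. With TMM the gp49B KO over WT ratio of miR-16-5p in pool 1 was 0.939 (0.936 to 0.943), and in pool 2 it was 0.965 (0.962 to 0.968). On total UMIs these ratios were 0.832 and 1.15, so the direction in pool 2 depended on the scaling.

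Markers of cells that could supply this RNA varied between the same libraries. The 5 red blood cell miRNAs (miR-451a, miR-486a-5p, miR-486b-5p, miR-144-3p and miR-144-5p) together took 7.94% and 17.8% of miRNA UMIs in gp49B KO, against 10.6% and 18.4% in WT. The 2 hepatocyte arms of miR-122 took 7.06% and 19.7% in gp49B KO, against 10.6% and 26.6% in WT. The 4 myeloid and platelet arms of miR-223 and miR-142a took 4.64% and 1.14% in gp49B KO, against 2.21% and 1.16% in WT. In pool 2 miR-223-3p was lower in gp49B KO, at 0.602% against 0.704% in WT, and miR-142a-3p higher, at 0.508% against 0.427%. The 5p arms of both were also higher in gp49B KO there. The endothelial pair from miR-126a took 0.922% and 0.339% in gp49B KO, against 0.587% and 0.339% in WT. In pool 2 miR-126a-3p was at 0.163% in gp49B KO and 0.185% in WT, and miR-126a-5p at 0.175% and 0.153%. The skeletal muscle pair, miR-206-3p and miR-133a-3p, took 1.91% and 0.493% in gp49B KO, against 0.144% and 0.257% in WT. In pool 2 only miR-206-3p was higher in gp49B KO, at 0.412% against 0.170% in WT. There miR-133a-3p was at 0.0819% in gp49B KO and 0.0870% in WT. No marker was at 0 in any library. The red blood cell and hepatocyte sums were higher in both pool 2 libraries. There the share of miR-16-5p was lower than in the pool 1 library of the same genotype. Shares of a total are not independent of each other. After TMM scaling miR-16-5p, miR-486b-5p and miR-122-5p were all higher in pool 2 in both genotypes. The red blood cell and hepatocyte sums were mostly miR-486b-5p and miR-122-5p, and not every marker's share followed them. miR-144-3p was at 0.0125% and 0.00986% in gp49B KO pools 1 and 2 and at 0.0321% and 0.00757% in WT pools 1 and 2, lower in pool 2 in both genotypes. miR-122-3p, with 22 to 43 UMIs, was also lower in pool 2 in both, and miR-144-5p was lower in pool 2 in WT. The part of any of these cells in the family's values was not tested.

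**Figure D1:**
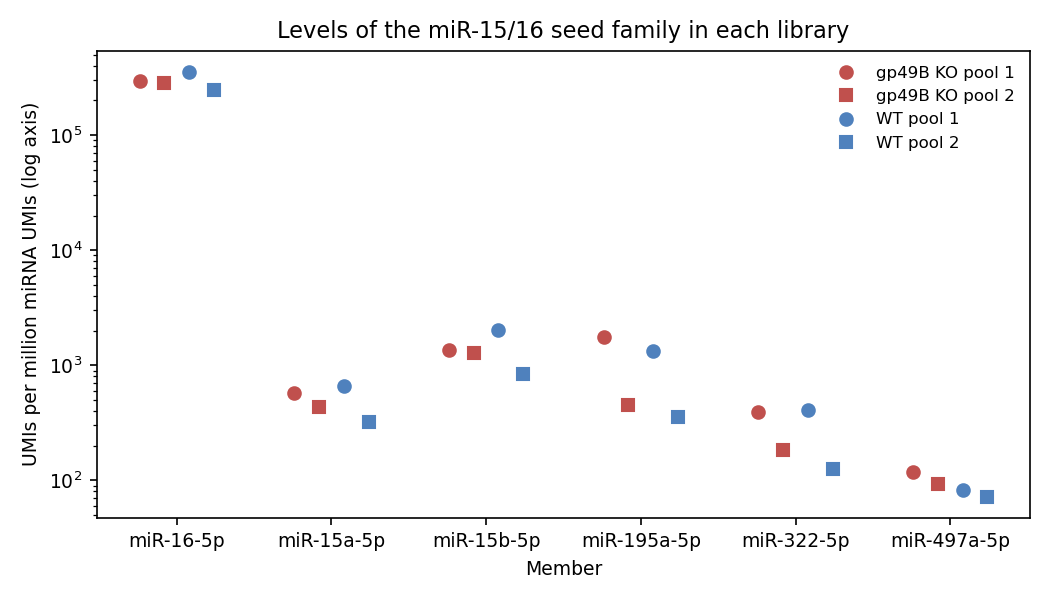
Level of each member in CPM (log axis), 1 point per library, with circles for pool 1 and squares for pool 2. miR-16-5p sits between 247853 and 353819 CPM and every other member between 72.2 and 2026, and the gp49B KO and WT points overlap for each member except miR-497a-5p.

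Among the other members miR-15b-5p, which is transcribed with miR-16-2 from the Smc4 intron, had the highest mean level. It had 2306 and 4627 UMIs in gp49B KO pools 1 and 2, against 3196 and 2674 in WT pools 1 and 2, or 1349 and 1275 CPM in gp49B KO against 2026 and 843 in WT. On total UMIs both gp49B KO libraries again lay between the WT libraries. After TMM scaling the WT libraries lay between those of gp49B KO. The levels were then 898 and 1864 TMM-scaled CPM in gp49B KO and 1194 and 1470 in WT. With TMM its ratio in pool 1 was 0.752 (0.712 to 0.793) and that in pool 2 was 1.27 (1.21 to 1.33), against 0.666 and 1.51 on total UMIs. The pools thus differed in direction under both scalings, by more than counting error.

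Its paralogue miR-15a-5p, from the Dleu2 intron, was less abundant, with 983 and 1575 UMIs in gp49B KO and 1034 and 1021 in WT. These were 575 and 434 CPM in gp49B KO and 655 and 322 in WT. With TMM the pool 1 ratio was 0.990 (0.907 to 1.08) and the pool 2 ratio 1.13 (1.04 to 1.22), and on total UMIs 0.877 and 1.35. The number of miR-15b-5p UMIs per miR-15a-5p UMI, which needs no scaling between libraries, was 2.35 and 2.94 in gp49B KO and 3.09 and 2.62 in WT, so the genotypes overlapped.

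The pair from chromosome 11 had UMI ratios above 1 in both pools under both scalings. miR-195a-5p is studied, among other roles, for halting the cell cycle in heart and skeletal muscle. It had 2986 and 1635 UMIs in gp49B KO pools 1 and 2, against 2095 and 1118 in WT pools 1 and 2. Its levels of 1747 and 450 CPM in gp49B KO and 1328 and 353 in WT overlapped between genotypes, since they differed mostly by pool number. The TMM ratio was 1.48 (1.40 to 1.57) for pool 1 and 1.07 (0.993 to 1.16) for pool 2, and the ratios were 1.32 and 1.28 on total UMIs.

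miR-497a-5p, its cluster partner, was the rarest member, with 203 and 338 UMIs in gp49B KO and 130 and 229 in WT. It was at 119 and 93.1 CPM in gp49B KO and at 82.4 and 72.2 in WT, and both gp49B KO libraries were above both WT libraries. With TMM scaling the groups overlapped, with 79.0 and 136 TMM-scaled CPM in gp49B KO and 48.6 and 126 in WT. Ratios were 1.63 (1.30 to 2.04) and 1.08 (0.912 to 1.28) with TMM, and 1.44 and 1.29 on total UMIs. On total UMIs miR-497a-5p was the 1 member of 6 with both gp49B KO libraries above both WT libraries, where 3.28% of all miRNAs tested were. The mean level was 106 ± 18.1 CPM in gp49B KO and 77.3 ± 7.18 in WT (SD, n = 2 each), with a two-sided exact permutation p of 0.333, the smallest that 2 against 2 libraries allow. The difference, 0.00286 percentage points of miRNA UMIs, was 0.00158 points without gp49B KO pool 1.

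miR-322-5p, from the chromosome X cluster it shares with miR-503, had 669 and 668 UMIs in gp49B KO and 641 and 397 in WT. Its 391 and 184 CPM in gp49B KO and 406 and 125 in WT overlapped. After TMM scaling it was at 260 and 269 TMM-scaled CPM in gp49B KO and 240 and 218 in WT, with no overlap. It was the 1 member of 6 for which that held with TMM, where 9.52% of all miRNAs tested had both gp49B KO libraries above both WT libraries. Ratios were 1.09 (0.974 to 1.21) and 1.23 (1.09 to 1.40) with TMM and 0.963 and 1.47 on total UMIs.

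**Figure D2:**
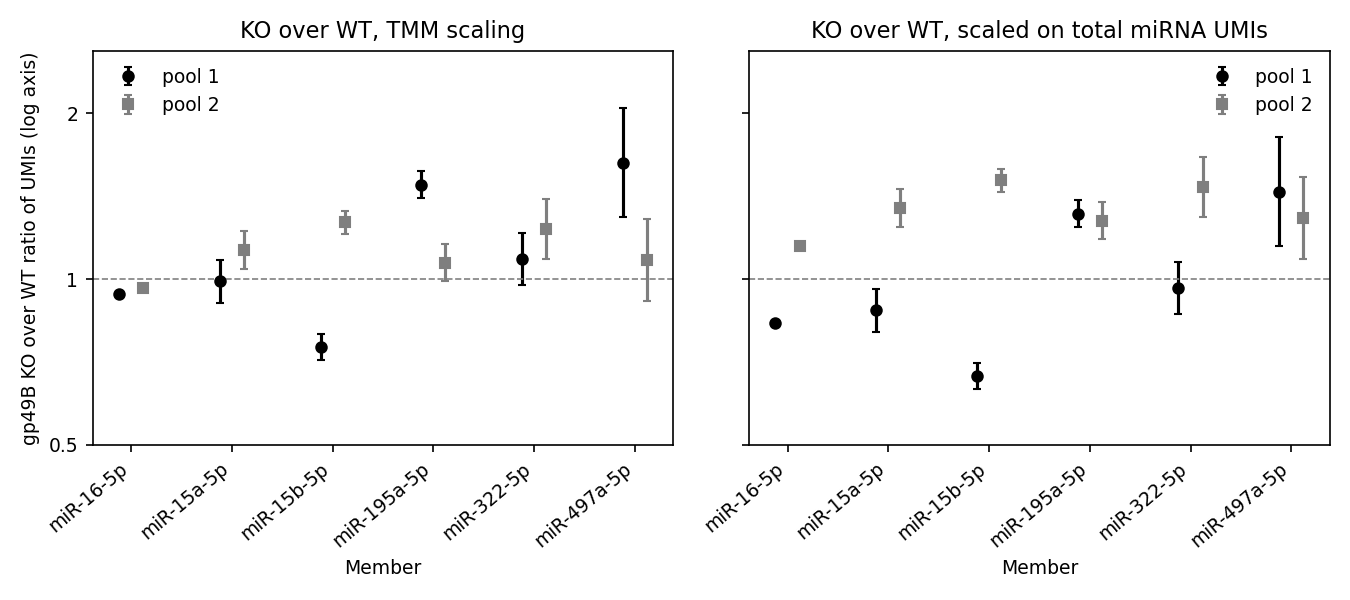
Ratio of gp49B KO to WT UMIs for each member within pool 1 (black circles) and pool 2 (grey squares) on a log axis, after TMM scaling on the left and on total miRNA UMIs on the right, with exact 95% intervals for counting error. miR-15b-5p is at 0.752 in pool 1 and 1.27 in pool 2 with TMM, while miR-195a-5p and miR-497a-5p are above 1 in both pools under both scalings.

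Tested over all 1797 miRNAs with edgeR's quasi-likelihood test, 0 of the 6 members passed an adjusted p under 0.05, as did 0% of all miRNAs tested, and 0 of 6 had an unadjusted p under 0.05, against 1.78% of all. DESeq2 and limma-voom likewise called 0 members and 0 miRNAs. The largest estimate was that of miR-195a-5p, a log2 fold change of 0.38 (SE 0.63, unadjusted p = 0.556, edgeR adjusted p = 0.99995), with 911 ± 356 TMM-scaled CPM in gp49B KO and 699 ± 119 in WT (SD, n = 2 each). Estimates were 0.31 (SE 0.59) for miR-497a-5p, 0.21 (SE 0.53) for miR-322-5p, 0.10 (SE 0.60) for miR-15a-5p, 0.05 (SE 0.68) for miR-15b-5p and -0.06 (SE 1.26) for miR-16-5p. Each was smaller than its standard error. With 5 of 6 estimates above 0, where 47.4% of all were, the median log2 fold change was 0.16 over the members and -0.03 over all miRNAs tested. The estimate of miR-15b-5p turned to -0.13 on total UMIs. Leaving out 1 library turned the sign of each estimate except that of miR-322-5p, which ran from 0.15 to 0.30. The TMM-scaled levels of miR-322-5p did not overlap between genotypes, which by itself all but fixes that sign. No member had both gp49B KO libraries below both WT libraries, where 11.6% of all did with TMM and 2.11% on total UMIs. With TMM 3 of 6 members were higher in gp49B KO in both pools (24.5% of all), 1 was lower in both (27.2% of all) and 2 were lower in pool 1 and higher in pool 2 (23.5% of all). On total UMIs these counts were 2 (24.4% of all), 0 (20.8% of all) and 4 (44.6% of all).

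Left without miR-16-5p, the family was a small and variable fraction. The 5 others made up 1.40% and 0.848% of family UMIs in gp49B KO, against 1.26% and 0.687% in WT, so miR-16-5p supplied 98.6% and 99.2% in gp49B KO and 98.7% and 99.3% in WT. In both pools the others held a larger part of the family in gp49B KO, but the genotypes overlapped because pool 1 was higher than pool 2 (98.9 ± 0.390% for miR-16-5p in gp49B KO and 99.0 ± 0.401% in WT, SD, n = 2 each, two-sided exact permutation p = 0.667). Among the 5, miR-15b-5p supplied 32.3% and 52.3% in gp49B KO and 45.0% and 49.2% in WT. miR-195a-5p supplied 41.8% and 18.5% in gp49B KO and 29.5% and 20.6% in WT. In gp49B KO pool 1 miR-195a-5p was thus ahead of miR-15b-5p, and in the other 3 libraries miR-15b-5p led. The shares of miR-15a-5p were 13.8% and 17.8% in gp49B KO and 14.6% and 18.8% in WT, and those of miR-322-5p 9.36% and 7.55% in gp49B KO and 9.03% and 7.30% in WT. These 2 moved with pool number and by under 1 percentage point between genotypes within a pool. The smallest part was miR-497a-5p, with 2.84% and 3.82% in gp49B KO and 1.83% and 4.21% in WT. Of the 16 shares and ratios of members tested over libraries, counting those above, all had an adjusted p of 1 (Benjamini-Hochberg). With 2 against 2 libraries the exact permutation test cannot give a p under 0.333. No adjusted p under 0.05 was therefore possible, and these tests decide nothing about the members.

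**Figure D3:**
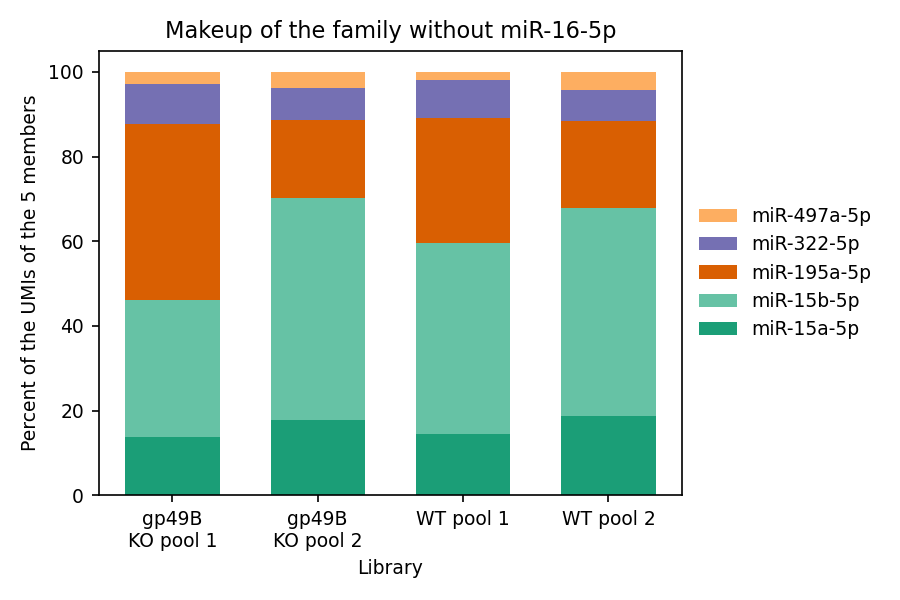
Makeup of the 5 members other than miR-16-5p in each library, as the percent of their summed UMIs. miR-195a-5p is largest in gp49B KO pool 1 at 41.8%, and miR-15b-5p is largest in the other 3 libraries at 45.0 to 52.3%.

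The 2 hairpins that yield miR-16-5p cannot be told apart by that strand, which both encode, but their 3p arms differ. The hairpins are shown with both mature arms in capitals (RefSeq, GRCm38.p6).
Mir16-1: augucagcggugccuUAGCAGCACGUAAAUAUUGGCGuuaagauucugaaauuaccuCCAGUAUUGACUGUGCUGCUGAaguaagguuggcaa
Mir16-2: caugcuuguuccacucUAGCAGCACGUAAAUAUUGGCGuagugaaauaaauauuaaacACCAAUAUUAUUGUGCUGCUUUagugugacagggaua
The first hairpin lies on chromosome 14 (61631880 to 61631972, minus strand) and the second on chromosome 3 (69009902 to 69009996, plus strand). miR-16-2-3p had 3939 and 3456 UMIs in gp49B KO and 4389 and 2097 in WT, while miR-16-1-3p had 37 and 31 in gp49B KO and 26 and 23 in WT. The second hairpin's 3p arm was therefore counted 106 and 111 times as often as the first's in gp49B KO, and 169 and 91.2 times in WT. By reads the excess was 26.4 and 51.4 times in gp49B KO, against 32.1 and 52.0 times in WT, because miR-16-2-3p had few reads per UMI. How much of miR-16-5p came from each hairpin was not measured.

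The other members can be compared with their own 3p arms within each library, with no scaling between libraries. For miR-497a the 5p arm had 8.12 (5.35 to 12.8) UMIs for each 3p UMI in gp49B KO pool 1 and 12.1 (8.20 to 18.4) in gp49B KO pool 2. The WT pool 1 ratio was 2.45 (1.77 to 3.44) and the WT pool 2 ratio 3.75 (2.82 to 5.06). The 3p arm itself had 25 and 28 UMIs in gp49B KO, against 53 and 61 in WT. Library medians over miRNAs were 43 and 42 UMIs in gp49B KO and 47 and 31 in WT. The 3p counts were thus below the median in gp49B KO and above it in WT. The log2 fold change of the 3p arm was -1.33 (SE 0.44, edgeR unadjusted p = 0.0114, adjusted p above 0.99). The 5p arm and the 3p arm thus went in opposite directions in both pools. An antisense miRNA, miR-497b, lies on the opposite strand and overlaps the 3p arm of miR-497a, and had 36 and 24 UMIs in gp49B KO and 37 and 17 in WT.

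miR-322 gave a similar pair of values. Its 5p to 3p ratio was 9.56 (7.46 to 12.4) and 7.03 (5.66 to 8.81) in gp49B KO pools 1 and 2, against 4.03 (3.38 to 4.83) and 3.39 (2.75 to 4.21) in WT pools 1 and 2. The 3p arm had 70 and 95 UMIs in gp49B KO and 159 and 117 in WT. In both hairpins the gp49B KO ratios lay above the WT ratios, and the counting intervals of gp49B KO and WT did not meet. By reads the ratios were 8.96 and 7.75 in gp49B KO and 4.15 and 3.17 in WT for miR-322, and 9.86 and 11.6 in gp49B KO and 2.51 and 3.39 in WT for miR-497a.

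The remaining hairpins did not show this. For miR-15b the ratio was 11.2 and 11.7 in gp49B KO and 11.0 and 9.65 in WT, apart but with overlapping intervals. It was 41.0 and 43.8 in gp49B KO and 31.3 and 113 in WT for miR-15a, whose 3p arm had 36 UMIs or fewer, and 80.7 and 23.4 in gp49B KO and 49.9 and 19.6 in WT for miR-195a. The gp49B KO ratios were above the WT ratios in 3 of the 5 hairpins, where 11.4% of 386 hairpins with both arms averaging 25 or more UMIs had such an order, and in 0 of the 5 they were below, where 9.33% of the 386 were. In 2 of the 5 the lowest gp49B KO ratio was at least 1.5 times the highest WT ratio, where 1.81% of the 386 were, and the opposite held in 0 of the 5, where 0.259% of the 386 were. Over all 648 hairpins with both arms above 0 in every library, 10.3% had the gp49B KO ratios above the WT ratios and 12% had them below, while 1.39% passed the 1.5-fold limit upward and 0.926% the opposite way. These limits were chosen after the values were seen, as was the comparison of arms. An exact permutation test (two-sided) gave p = 0.333 for miR-322, miR-497a and miR-15b, the smallest possible, with 0.556 after adjustment over the 5 hairpins.

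**Figure D4:**
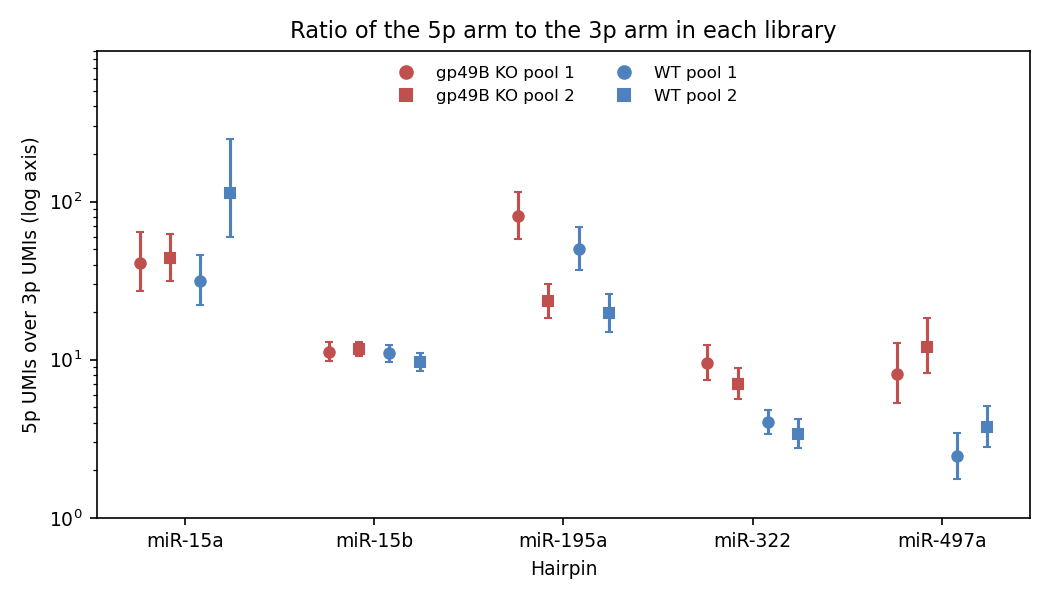
Ratio of 5p to 3p UMIs for 5 hairpins in each library (log axis), with exact 95% intervals for counting error. For miR-322 and miR-497a the gp49B KO points, at 7.03 or more, lie above the WT points, at 4.03 or less, while those of miR-15a and miR-195a overlap between genotypes.

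All 7 other arms of these hairpins were tested and 0 were called by edgeR, with 3 estimates above 0 and 4 below and a median log2 fold change of -0.12. At an unadjusted p under 0.05 there was 1, miR-497a-3p. Of all miRNAs tested, 1.78% had an unadjusted edgeR p under 0.05 and 47.4% an estimate above 0. The chromosome X cluster that holds miR-322 also encodes miR-503, miR-351, miR-542, miR-450a and miR-450b, of which 11 arms were tested. None was called, 4 estimates were above 0 and 7 below, and the lowest unadjusted p was 0.243. The neighbour miR-503-5p had 201 and 165 UMIs in gp49B KO and 208 and 139 in WT, with ratios of 1.01 and 0.870 with TMM. miR-351-5p had 175 and 168 in gp49B KO and 268 and 176 in WT, with ratios of 0.680 and 0.700, so it stood lower in both pools with TMM, and on total UMIs at 0.603 and 0.834.

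In RefSeq 4 further listed miRNAs have the same bases 2 to 8: miR-195b, miR-6342, miR-6353 and miR-6419. All were rare, with 9 to 86 UMIs per library, and 0 were called. miR-195b, which matches miR-195a-5p at 18 of 21 bases but lies on chromosome 2, had 86 and 23 UMIs in gp49B KO and 84 and 17 in WT. miR-6419 had 76 and 62 in gp49B KO and 44 and 28 in WT. Its log2 fold change was 0.77 (SE 0.40, edgeR unadjusted p = 0.0794). It was the 1 of the 4 higher in gp49B KO in both pools under both scalings. Taking each scaling alone, 24.5% of all miRNAs tested were higher in both pools with TMM and 24.4% on total UMIs, so 1 of 4 was near that share.

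The miRNAs most like miR-16-5p over the 4 libraries were let-7i-5p, miR-1298-5p, miR-17-5p, miR-1928 and miR-19b-3p. The measure was the root mean square difference of centred log2 shares, from 0.01 for let-7i-5p to 0.08 for miR-19b-3p, against a median of 0.50 over the 346 other miRNAs that averaged at least 100 UMIs. let-7i-5p, a member of the let-7 family, had 30812 and 63719 UMIs in gp49B KO and 33656 and 47650 in WT, with ratios of 0.954 and 0.980 with TMM. The summed other 5 members were most like miR-182-5p (0.02), miR-6915-5p, miR-664-3p, miR-34a-5p and miR-671-5p (0.08). With 4 libraries these likenesses are descriptions.

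Reads per UMI, a readout of how often each tagged molecule was sequenced, set miR-195a-5p apart from the other members. It had 3.41 and 1.77 reads per UMI in gp49B KO and 2.19 and 1.55 in WT, against medians of 6.16 and 2.18 in gp49B KO and 5.82 and 1.71 in WT over the 352 miRNAs that averaged at least 100 UMIs. That was 0.553 and 0.812 of the median in gp49B KO, and 0.376 and 0.908 in WT. Among the 352 it ranked 20 and 20 from the lowest in gp49B KO and 12 and 32 in WT. The other 5 members lay between 0.865 and 1.07 of the median. The gp49B KO over WT ratio of miR-195a-5p depended on the count used. By reads with TMM it was 2.20 in pool 1 and 0.958 in pool 2, against 1.48 and 1.07 by UMIs. On total reads it was 1.90 in pool 1 and 1.16 in pool 2, against 1.32 and 1.28 on total UMIs. The direction by reads in pool 2 thus also depended on the scaling. For miR-497a-5p the ratios by reads were 1.83 and 1.08, against 1.63 and 1.08 by UMIs. Of the other arms, miR-16-2-3p had 1.21 and 1.10 reads per UMI in gp49B KO and 1.19 and 1.07 in WT, the lowest of the 352 in 3 libraries and second lowest in gp49B KO pool 2.

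**Figure D5:**
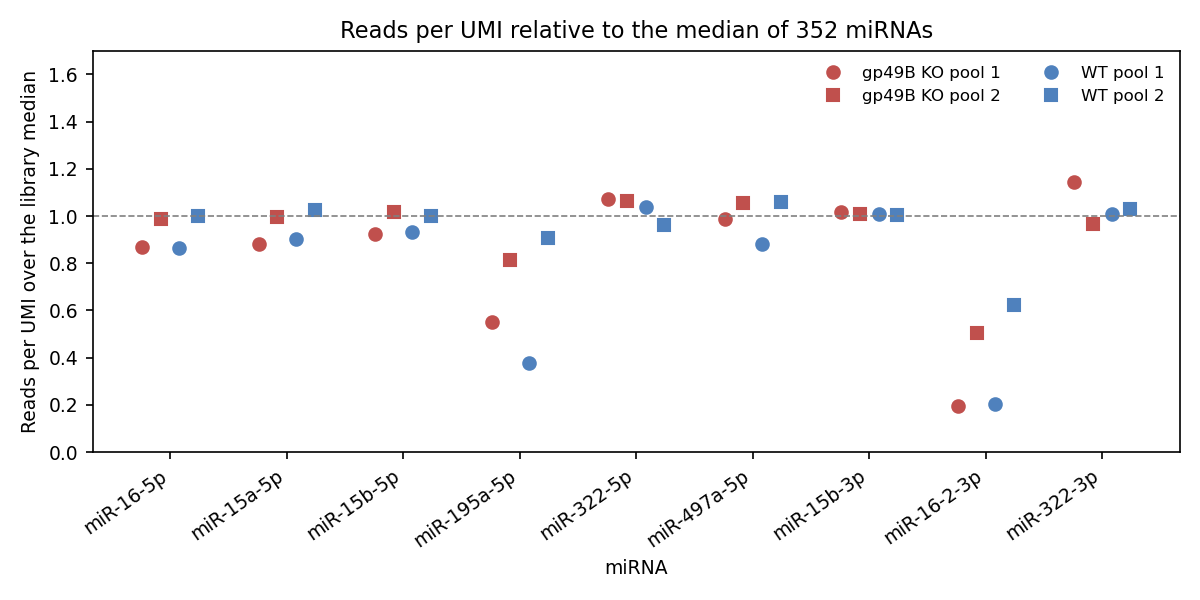
Reads per UMI of the members and of the 3 other arms that averaged at least 100 UMIs, divided by the library's median over 352 miRNAs, 1 point per library. miR-195a-5p lies at 0.376 to 0.908 and miR-16-2-3p at 0.197 to 0.624, and the other 5 members at 0.865 to 1.07.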

How the data were processed

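Per the labels' protocols, ExoQuick was used to precipitate exosomes from plasma, RNA came from a miRNAeasy Mini preparation, and the QIAseq miRNA kit was used for the libraries. The values analysed were UMI counts of mature miRNAs as deposited, which carry no normalization, with the deposited read counts as a second measure. In the log2 values that the authors deposited, log2 of the UMI count is shifted by a constant for each library. The submitters' processing notes name FastQC 0.11.9 and GRCm38. The aligner and counter were not given in the sources used here. Columns of UMI and read counts were matched to labels by genotype letter and pool number. The authors' log2 values were matched by the sample they were deposited for, because some of their headers carry another pool number.

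The genotype test was run in edgeR 4.0.16 (R 4.3.3): filterByExpr, TMM, the quasi-likelihood test on genotype alone with 2 residual degrees of freedom, and Benjamini-Hochberg adjustment over 1797 miRNAs at 0.05. Shares and ratios used exact permutation tests in SciPy 1.17.1. DESeq2 1.42.0, limma 3.58.1, other scalings, filters and left-out libraries were alternatives. Sequences were RefSeq's. piRNAs and miRNAs listed for 1 pool number were left out. Members and lists were chosen with earlier results of these data known. The rule for names took the members, their other arms, other miRNAs with the seed, the miR-322 cluster, antisense partners and the 5 nearest patterns.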

Additional observations from a re-analysis of the deposited data

How the results depend on the processing

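The members called stayed at 0 in each of the 14 other fits run, and the count of all miRNAs called at 0 except when a library was left out (0 to 3, with 3 without gp49B KO pool 2 and 2 without WT pool 2). A lone library in such a fit is assumed to vary like the others. With pool number as a replicate block, 0 miRNAs were called and 78 had an unadjusted edgeR p under 0.05, and the lowest member p was 0.186. The labels do not say that the number pairs libraries, though deviations of same-numbered libraries correlated at 0.527 over 1797 miRNAs.

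The log2 fold change of miR-15b-5p, 0.05 as reported, was -0.13 on total UMIs, -0.0921 with miRNAs averaging at least 100 UMIs, -0.0344 with the replicate block, -0.0398 with limma-voom and -0.0232 on the authors' log2 values. Leaving out each library in turn gave -0.71 to 0.56 for miR-16-5p, -0.31 to 0.44 for miR-15a-5p, -0.57 to 0.50 for miR-15b-5p, -0.0694 to 0.73 for miR-195a-5p and -0.20 to 1.15 for miR-497a-5p. Only miR-322-5p kept its sign, at 0.15 to 0.30. Its TMM-scaled levels did not overlap between genotypes, so the kept sign adds little to that order. The cause of the turns in the other members was not tested.

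With miR-122-5p, miR-486a-5p and miR-486b-5p out of the total, the gp49B KO minus WT difference in percentage points became -4.87 for the family share (-1.09 as reported), -4.86 for miR-16-5p, -0.0239 for miR-15b-5p (-0.0123 as reported), -0.000592 for the other 5 members and -0.00234 for miR-15a-5p. The difference in miR-195a-5p to miR-497a-5p ratio became 0.457 by reads. Leaving out each library in turn, differences ran from -6.53 to 4.35 points for the family share (4.35 without WT pool 1), -0.436 to 0.132 for miR-16-5p within the family, -0.119 to 0.159 for the other 5, -6.41 to 4.19 for miR-16-5p, -0.0151 to 0.0182 for miR-15a-5p, -0.0714 to 0.0468 for miR-15b-5p, -0.0390 to 0.0906 for miR-195a-5p, -0.0119 to 0.0162 for miR-322-5p and 0.00158 to 0.00414 for miR-497a-5p. Within the other 5 they ran from -2.99 to 1.21 for miR-15a-5p, -14.8 to 5.22 for miR-15b-5p, -6.55 to 16.7 for miR-195a-5p, -0.612 to 1.19 for miR-322-5p and -0.879 to 1.499 for miR-497a-5p. Ratio differences ran from -6.34 to 4.89 for miR-195a-5p to miR-497a-5p and -0.509 to 0.0828 for miR-15b-5p to miR-15a-5p. For the 5p to 3p ratio they ran from -71.1 to 11.0 for miR-15a and -11.4 to 45.96 for miR-195a. Those of miR-322, miR-497a and miR-15b kept their sign by reads. Both gp49B KO ratios lay above both WT ratios in these hairpins, so leaving out a library could not turn the sign. For miR-15b the differences were 0.484 to 1.81 with libraries left out.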

Other observations

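Among the 386 hairpins with both arms averaging 25 or more UMIs, 5 besides miR-322 and miR-497a had their lowest gp49B KO ratio of 5p to 3p at least 1.5 times the highest WT ratio. They were miR-1b, miR-205, miR-3098, miR-6943 and miR-7041. For miR-205, a miRNA of epithelial cells, the ratio was 297 and 279 in gp49B KO and 56.1 and 152 in WT. The 1 hairpin with the opposite order was miR-141, of the epithelial miR-200 family, at 0.126 and 0.1096 in gp49B KO and 0.304 and 0.190 in WT. These hairpins were chosen after their values were seen, and no miRNA of them passed the edgeR test.

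Reads per UMI below 0.667 of the library median in all 4 libraries were found for 5 of the 352 miRNAs that averaged at least 100 UMIs. Besides miR-16-2-3p they were miR-21b, miR-1b-5p, miR-3970 and miR-486b-3p. The last had 1.35 and 1.16 reads per UMI in gp49B KO and 1.37 and 1.12 in WT.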
